A study of Mus musculus with 18 samples.

Results

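The genes described here carry or limit Wnt signals: the R-spondin receptors Lgr4 and Lgr6, the Frizzled receptors Fzd1, Fzd2, Fzd7 and Fzd8, and the feedback genes Axin2, Znrf3 and Rnf43. The list holds 9 genes, picked by symbol from a table of 15288 genes, and 8 of them had a row and were analysed. Rnf43 is not analysed here. The list was drawn up with results of these data known, so levels and differences of these genes are given as a description, without a test of their own. The data are 18 RNA-seq libraries of cultured mouse cells whose label is pulmonary microvascular endothelial cells, the cells lining the smallest lung vessels. The series title names vascular smooth muscle cells instead.

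The groups crossed an siRNA with an estrogen, with 3 libraries in each of 6 groups. Cells received either scrambled siRNA or an siRNA against CYP1B1 (siCYP1B1), a cytochrome P450 enzyme that hydroxylates estradiol. A day later they received 1 uM E2 (estradiol), 1 uM 16aOHE (a 16-hydroxylated estrone metabolite), or vehicle, for 24 hours in medium with 5% serum. All 6 groups were thus transfected, and the labels name no genetic alteration, animal age or sex. Whether a group's 3 libraries are separate cultures is unstated, so every interval and p-value reflects no more than how far these libraries spread, and that spread may be technical.

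In the canonical Wnt pathway, a secreted Wnt ligand binds a Frizzled receptor together with Lrp5 or Lrp6, and beta-catenin then escapes destruction and acts with TCF/LEF factors on target genes. Znrf3 and Rnf43 are ubiquitin ligases that remove Frizzled receptors from the membrane. R-spondins bound to Lgr4, Lgr5 or Lgr6 take those ligases away and so keep Frizzled receptors at the surface. Axin2, a scaffold of the complex that destroys beta-catenin, is itself a widely used target gene of the pathway, which makes it a feedback inhibitor. In the lung, Wnt signals are known for roles in development, repair and vascular growth.

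Levels are given as CPM, read counts scaled to a common library total, and differences on the scale of log2(CPM + 1), which understates the change of genes near 1 CPM. Between 14.0 and 38.4 reads, depending on the library's estimated depth, made up 1 CPM. In vehicle the targeted gene Cyp1b1 averaged 92.2 CPM in scrambled and 81.5 CPM in siCYP1B1 cells, a percent change of -11.7, and changes in E2 and 16aOHE were -12.7 and -15.2 percent (adjusted p = 0.000982, 0.000357 and 5.85e-05 by limma). Of the 7 endothelial markers in the table, Pecam1 (0.0482 CPM), Vwf (0.0306 CPM) and Tek (0.824 CPM) averaged under 1 CPM, and Kdr (4.37 CPM), Esam (18.9 CPM), Flt1 (70.0 CPM) and Cd34 (107 CPM) above it. Of the 6 smooth muscle markers, Myh11 (0.0765 CPM), Cnn1 (0.106 CPM) and Des (0.727 CPM) averaged under 1 CPM, and Tagln (2.66 CPM), Acta2 (20.5 CPM) and Smtn (90.1 CPM) above it. Of the 8 mesothelial and epithelial markers in the table, 6 averaged 1 CPM or more, from Cdh1 (3.09 CPM) to Msln (1521 CPM). Krt8 (0.522 CPM) and Epcam (0.343 CPM) averaged under 1 CPM. Of the 8 fibroblast and pericyte markers, 6 averaged 1 CPM or more, from Pdgfra (3.31 CPM) to Col3a1 (2488 CPM). The collagen gene Col1a1 averaged 1946 CPM, and Lum (0.0428 CPM) and Cspg4 (0.217 CPM) under 1 CPM. Markers thus gave a mixed picture of the cell types named by the label and the title, with Pecam1, Vwf and Myh11 near 0.

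All 8 genes passed the filter of a mean of at least 1 CPM, which 11835 genes of the table passed. The RefSeq promoter table held 6 of the 9 listed genes, Lgr4, Lgr6, Fzd1, Fzd7, Axin2 and Rnf43. The promoter of Lgr6 is shown because Lgr6 had the widest range between groups, and that of Fzd1 because it was the only one of these promoters with the TCF/LEF core. Both are the 250 bases before the start site, from RefSeq GRCm38.p6, on the minus strand, at chr1:135105277-135105526 and chr5:4758217-4758466. Capitals mark the aryl hydrocarbon receptor core GCGTG on either strand for Lgr6, and TCAAAG for Fzd1.
Lgr6 promoter: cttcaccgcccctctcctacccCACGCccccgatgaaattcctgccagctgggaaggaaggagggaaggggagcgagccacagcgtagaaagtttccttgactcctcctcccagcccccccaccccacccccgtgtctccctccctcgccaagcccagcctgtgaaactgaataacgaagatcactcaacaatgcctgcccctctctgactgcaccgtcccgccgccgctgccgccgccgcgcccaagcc
Fzd1 promoter: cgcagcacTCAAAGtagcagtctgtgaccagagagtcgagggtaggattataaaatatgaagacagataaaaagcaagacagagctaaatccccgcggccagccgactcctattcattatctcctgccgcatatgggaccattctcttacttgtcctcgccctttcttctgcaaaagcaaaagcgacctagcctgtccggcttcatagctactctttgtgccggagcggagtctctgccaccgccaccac

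Motifs were searched on both strands in windows of 300 bases, from 250 before to 50 after each start. The full palindromic estrogen response element lay in no promoter of these genes, and in 0.0700% of the 32851 promoters in the table. TCAAAG lay in 16.0% of all promoters, and among these genes only in that of Fzd1. GCGTG lay in 32.4% of all promoters, once in that of Lgr6, in 2 places in that of Lgr4 and in 1 of the 2 of Rnf43. The longer TCF/LEF form ATCAAAG, which contains TCAAAG, was in 3.73% of all promoters and in none of these. A match in a window is a description of its letters only.

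Earlier results of the series showed that 7 bases, AAAGTCA, are common in the 3′ UTRs of genes lower with siCYP1B1. In vehicle, 1056 genes with an annotated UTR were called lower with siCYP1B1 and 29.6% of these held AAAGTCA, beside 8.80% of 1330 called higher and 15.2% of the rest. Median UTR lengths in these classes were 1619, 941 and 1224 bases. Among the 8 genes it lay once in Lgr6 and in Fzd8 and in 2 places in Fzd7, and it was not found in Lgr4, Fzd1, Fzd2, Axin2 or Znrf3. The sites of Lgr6 and Fzd8 lie past the 3′ ends that the deposited table gives these genes, 134986353 and 9216201. They may thus lie outside what was counted, and only the sites of Fzd7 lie within the listed positions. The sites of Lgr6 and Fzd7 are shown with 11 bases on each side, in capitals, from GRCm38 at chr1:134983672-134983700 (minus strand), chr1:59485490-59485518 and chr1:59486328-59486356 (plus strand).
Lgr6 site: aatgtagagctAAAGTCAatcagaagact
Fzd7 first site: taccctgaaaaAAAGTCAtgacttgttgc
Fzd7 second site: caggtttcaagAAAGTCAttaagggaagg
Of the 4 genes of the list called lower with siCYP1B1 in vehicle, Lgr4, Fzd2 and Axin2 thus lacked the sequence. Fzd8 held it, though past its end in the deposited table. Neither Lgr6 nor Fzd7 was called lower in any siCYP1B1 comparison. Among the other Wnt pathway genes described below, 10 of those called lower with siCYP1B1 in vehicle had an annotated UTR, and 4 of these held the sequence (Gsk3b in 4 places, Sfrp4 in 2, Lrp6 and Ror1 in 1 each). It lay in 0 of 6 called higher and in 4 of 42 not called, and median UTR lengths were 2482, 1665 and 1679 bases. The sequence was picked from earlier results of this series. The shares here and above are thus no test of it, and nothing is read from them.

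Per kilobase of annotated exon, the Frizzled receptors Fzd1 and Fzd7 were the most abundant of the 8, at mean levels of 25.2 and 25 CPM per kb. Fzd2 followed at 14.9 CPM per kb and Lgr4 at 13.7 CPM per kb. Fzd8 stood at 2.99, Znrf3 at 1.98 and Axin2 at 1.96 CPM per kb. Lgr6 was lowest, at 0.40 CPM per kb, far below Lgr4. The annotated exons of Lgr6 and Fzd8 reach past these genes' positions in the deposited table. Lgr6 starts at 134983301 in the annotation and at 134986353 in that table, and Fzd8 ends at 9218136 and 9216201. The levels per kb of Lgr6 and Fzd8 may thus be understated. The third receptor of that family, Lgr5, averaged 0.123 CPM and was below the filter.

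Lgr6 is a receptor for R-spondins, known as a stem cell marker of the hair follicle (chromosome 1, 134986353 to 135105276, minus strand, mm10). With scrambled siRNA and vehicle its 3 libraries stood at 0.623, 2.29 and 1.23 CPM, from an estimated 13, 53 and 27 reads. With E2 they stood at 2.72, 3.01 and 3.26 CPM, and with 16aOHE at 4.48, 3.43 and 3.68 CPM. No library with either estrogen was as low as any vehicle library, although the highest vehicle library came near the lowest E2 library.

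The same order was seen with siCYP1B1. Lgr6 stood at 1.78, 1.31 and 1.46 CPM in vehicle, 2.72, 3.11 and 2.51 CPM in E2, and 3.27, 4.90 and 3.58 CPM in 16aOHE. In both siRNA groups the libraries ran from vehicle through E2 to 16aOHE without overlap between neighbours.

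Lgr6 averaged 3.0 ± 0.269 CPM with E2 against 1.38 ± 0.845 CPM with vehicle in scrambled cells (SD, n = 3), a ratio of 2.16. The log2 difference was 0.80 (SE 0.185, 95% interval 0.42 to 1.19). With siCYP1B1 the means were 2.78 ± 0.305 and 1.52 ± 0.243 CPM, and the log2 difference 0.59 (0.20 to 0.97). With 16aOHE, Lgr6 averaged 3.86 ± 0.547 CPM in scrambled and 3.92 ± 0.868 CPM in siCYP1B1 cells. The ratios to vehicle were 2.79 and 2.58, and the log2 differences 1.08 (0.70 to 1.47) and 0.96 (0.57 to 1.34). Without the lowest vehicle library, scrambled vehicle 1, the log2 differences in scrambled cells were 0.56 for E2 and 0.84 for 16aOHE. With a pseudocount of 0.1 in place of 1, that of E2 in scrambled cells was 1.22. In siCYP1B1 cells the call for E2 was lost without siCYP1B1 vehicle 2, siCYP1B1 vehicle 3 or siCYP1B1 E2 2, at 0.53 to 0.57.

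In each 16aOHE comparison Lgr6 had the second largest difference among the genes called higher, of which there were 208 with scrambled siRNA and 300 with siCYP1B1. Among the genes called higher with E2 it stood at place 23 of 2199 and place 63 of 1971. Between the 2 siRNAs Lgr6 differed little in these libraries, by 0.14 (-0.25 to 0.52) in vehicle, -0.08 (-0.47 to 0.30) in E2 and 0.01 (-0.38 to 0.39) in 16aOHE. These intervals still allow differences of up to 0.52 on the log2 scale.

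**Figure D1:**
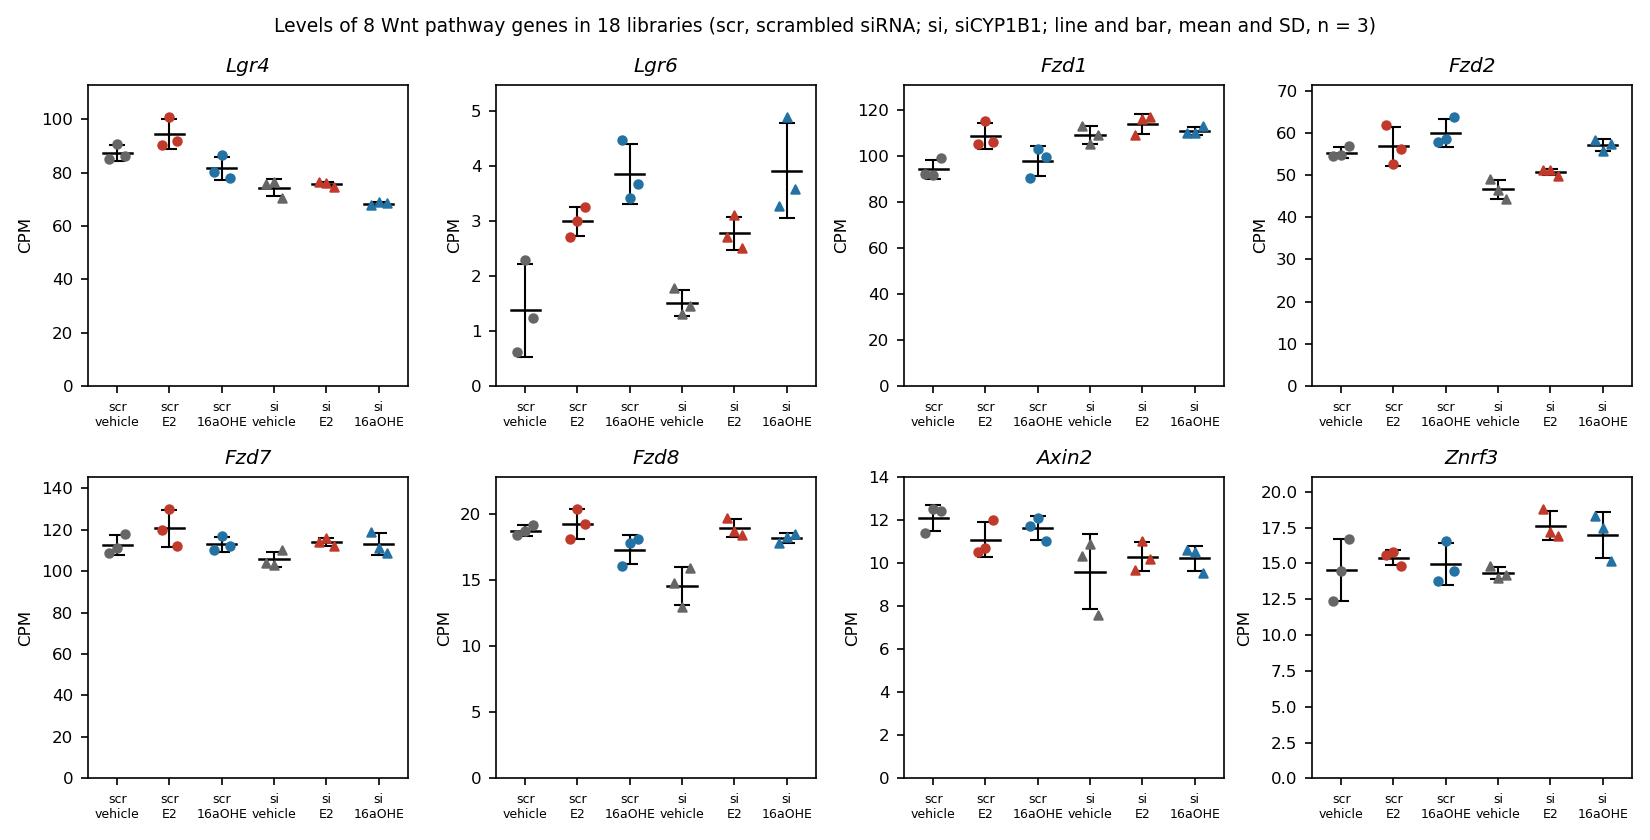
CPM (vertical axes, from 0) of 8 Wnt pathway genes in the 6 groups (horizontal axes), with 1 point per library (circles, scrambled siRNA; triangles, siCYP1B1) and the mean with its SD (n = 3). Lgr6 is lowest in both vehicle groups and highest with 16aOHE, Lgr4 is lower in every siCYP1B1 group than in its scrambled counterpart, and Fzd8 is lowest with siCYP1B1 in vehicle.

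Lgr4, the broadly expressed R-spondin receptor (chromosome 2, 109917647 to 110014257, plus strand), was lower with siCYP1B1 in all 3 arms. In vehicle it stood at 85.1, 90.7 and 86.4 CPM with scrambled siRNA and at 75.9, 76.6 and 70.7 CPM with siCYP1B1. In E2 the values were 90.6, 101 and 92.0 CPM against 76.4, 76.2 and 74.8 CPM. In 16aOHE they were 80.4, 86.6 and 78.2 CPM against 67.8, 68.9 and 68.5 CPM. The groups did not overlap within any arm. The log2 differences were -0.23 (95% interval -0.33 to -0.13), -0.31 (-0.41 to -0.21) and -0.25 (-0.35 to -0.16). These are changes of -14.9%, -19.7% and -16.3%.

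The order of Lgr4 means ran from 68.4 CPM with siCYP1B1 and 16aOHE to 94.4 CPM with scrambled siRNA and E2. Neighbours overlapped between the siCYP1B1 vehicle and E2 groups, and along the 3 scrambled groups. Lgr4 was lower with 16aOHE than with E2, by 0.21 in scrambled cells (difference -0.21, interval -0.30 to -0.11) and by 0.15 in siCYP1B1 cells (-0.15, -0.24 to -0.05). The latter call was lost without any single library of the 2 siCYP1B1 groups compared (differences of -0.16 to -0.14) and with scaling by median-of-ratios size factors (-0.10). Against vehicle, neither estrogen brought Lgr4 past the threshold, with differences of 0.11 and 0.03 for E2 and -0.10 and -0.12 for 16aOHE. Lgr4 and Lgr6 bind the same ligands. Against the respective control the siRNA comparisons passed the threshold for Lgr4 alone of the pair and the estrogen comparisons for Lgr6 alone. For the siRNA, the wider intervals of Lgr6 (-0.25 to 0.52, -0.47 to 0.30 and -0.38 to 0.39) include the differences of Lgr4. A divergence of the pair with the siRNA was thus not shown. The Pearson r of Lgr4 and Lgr6 over the 18 libraries was -0.15.

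Among the Frizzled receptors, Fzd1 was the only one that was higher with siCYP1B1 (chromosome 5, 4753839 to 4758216, minus strand). In vehicle it stood at 92.1, 91.5 and 98.9 CPM with scrambled siRNA and at 113, 105 and 109 CPM with siCYP1B1. In 16aOHE it stood at 90.4, 103 and 99.7 CPM against 110, 110 and 113 CPM. The groups did not overlap in these arms, and the differences were 0.21 (0.11 to 0.31) and 0.19 (0.08 to 0.29). The latter call was lost without scrambled 16aOHE 1, at 0.13.

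In E2, Fzd1 stood at 105, 115 and 106 CPM with scrambled siRNA and at 109, 116 and 117 CPM with siCYP1B1, and the groups overlapped (0.07, -0.03 to 0.17). E2 against vehicle gave 0.20 (0.10 to 0.31) in scrambled and 0.06 (-0.04 to 0.17) in siCYP1B1 cells. Fzd1 was thus lowest with scrambled siRNA and either vehicle or 16aOHE, at means of 94.1 and 97.8 CPM, and at 109 to 114 CPM in the other 4 groups. The test of whether the E2 difference depends on the siRNA gave -0.14 (-0.29 to 0.01). In scrambled cells Fzd1 was lower with 16aOHE than with E2 (-0.15, -0.25 to -0.05), at -0.09 without scrambled 16aOHE 1, a call also lost without scrambled E2 2 (-0.11) or scrambled 16aOHE 3 (-0.16), without a filter, with median-of-ratios scaling and with only the groups compared.

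Fzd2 (chromosome 11, 102604431 to 102608058, plus strand) was lowest with siCYP1B1 and vehicle. There it stood at 49, 46.4 and 44.4 CPM, against 54.4, 54.7 and 56.8 CPM with scrambled siRNA and vehicle. In siCYP1B1 cells it stood at 51.3, 51.1 and 49.8 CPM with E2 and at 58.4, 55.7 and 57.4 CPM with 16aOHE, and these 3 groups did not overlap. In scrambled cells the E2 libraries, at 61.8, 52.6 and 56.2 CPM, spanned the vehicle libraries, and the 16aOHE libraries stood at 57.8, 58.5 and 63.8 CPM. The difference with siCYP1B1 was -0.24 (-0.36 to -0.13) in vehicle and -0.16 (-0.27 to -0.05) in E2. The E2 value was -0.10 without scrambled E2 1, and its call was lost under 9 of the alternatives tried. In 16aOHE the difference was -0.07 (-0.18 to 0.05) and was not called. The siRNA-by-estrogen differences of Fzd2 were 0.08 (-0.08 to 0.24) for E2 and 0.18 (0.02 to 0.34) for 16aOHE. Neither passed the threshold over all genes. Against vehicle in siCYP1B1 cells, 16aOHE gave 0.29 (0.18 to 0.40). Against E2 it gave 0.17 (0.06 to 0.28), a call lost without any single library of the 2 groups compared (0.15 to 0.19).

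Fzd8 (chromosome 18, 9212856 to 9216201, plus strand) passed the threshold for the siRNA in vehicle and not in the estrogen arms. With vehicle it stood at 18.4, 18.7 and 19.2 CPM in scrambled and at 14.8, 13.0 and 15.9 CPM in siCYP1B1 cells, a difference of -0.35 (-0.50 to -0.20). With E2 it stood at 18.1, 20.4 and 19.3 CPM in scrambled and at 19.7, 18.7 and 18.4 CPM in siCYP1B1 cells (-0.02, -0.17 to 0.13). With 16aOHE it stood at 16.1, 17.8 and 18.1 CPM against 17.8, 18.3 and 18.5 CPM (0.07, -0.08 to 0.22). The siCYP1B1 vehicle group thus stood apart below the other 5 groups, none of which it overlapped.

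Within siCYP1B1 cells, Fzd8 was higher than in vehicle with E2, by 0.36 (0.21 to 0.51), and with 16aOHE, by 0.31 (0.16 to 0.46). In scrambled cells these differences were 0.03 (-0.12 to 0.18) and -0.11 (-0.26 to 0.04). The siRNA-by-estrogen differences were 0.33 (0.11 to 0.54) for E2 and 0.42 (0.21 to 0.63) for 16aOHE, the largest of the 8 genes for each estrogen. Neither passed the threshold over all genes, so the dependence on the siRNA was not shown at this number of libraries. The 16aOHE call in siCYP1B1 cells was lost without siCYP1B1 vehicle 2 (0.23) or siCYP1B1 16aOHE 2 (0.30) and with only the groups compared.

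Fzd7 (chromosome 1, 59482147 to 59486955, plus strand) varied least between groups, from a mean of 106 CPM with siCYP1B1 and vehicle to 121 CPM with scrambled siRNA and E2, a ratio of 1.14. Its libraries ran from 103 to 130 CPM, and all neighbouring groups in its order overlapped. It passed the threshold in no comparison. Without scrambled E2 3, the lowest of the 3 libraries of its group, E2 against vehicle in scrambled cells (0.15) and 16aOHE against E2 (-0.15) did pass, from 0.10 and -0.10. Of the 28 pairs that the 8 genes form, Fzd7 and Fzd8 had the highest Pearson r over the 18 libraries, 0.69, and Fzd1 and Axin2 the lowest, -0.54. These values are across libraries that share the design's groups and are given as a description.

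The feedback genes were examined next. Axin2 (chromosome 11, 108920349 to 108950781, plus strand) stood at 11.4, 12.5 and 12.4 CPM with scrambled siRNA and vehicle and at 10.3, 10.9 and 7.60 CPM with siCYP1B1 and vehicle. These groups did not overlap, and the lowest library stood apart from the other two of its group. The difference was -0.32 (-0.53 to -0.11), and -0.17 without that library, siCYP1B1 vehicle 3. The call was also lost without scrambled vehicle 2 (-0.29) or 3 (-0.30), without a filter and with only the groups compared.

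In the estrogen arms the siRNA difference of Axin2 did not pass the threshold. The siRNA-by-estrogen differences were 0.22 (-0.08 to 0.52) for E2 and 0.15 (-0.15 to 0.44) for 16aOHE. A smaller siRNA difference in these arms was thus not shown. With E2 it stood at 10.5, 10.7 and 12 CPM in scrambled and at 9.65, 11 and 10.2 CPM in siCYP1B1 cells (-0.10, -0.30 to 0.11). With 16aOHE it stood at 11.7, 12.1 and 11 CPM against 10.6, 10.5 and 9.55 CPM (-0.17, -0.38 to 0.04). In all 3 arms its mean was lower with siCYP1B1, and the E2 groups overlapped. No estrogen difference passed the threshold, with values of -0.12 and 0.10 for E2 and -0.05 and 0.09 for 16aOHE in scrambled and siCYP1B1 cells. The Pearson r of Axin2 and Lgr6 over the 18 libraries was 0.08. Exons of Axin2 overlap those of the antisense gene Gm11670 over 209 bases, so reads there cannot be told apart unless the counting used strand, a setting that the sources used here do not give.

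Znrf3 (chromosome 11, 5276329 to 5444847, minus strand) was highest with siCYP1B1 and an estrogen. It stood at 14.8, 14.0 and 14.2 CPM with siCYP1B1 and vehicle, at 18.8, 17.2 and 16.9 CPM with E2 and at 18.3, 17.5 and 15.2 CPM with 16aOHE. In scrambled cells it stood at 12.4, 14.5 and 16.7 CPM with vehicle, 15.6, 15.8 and 14.8 CPM with E2 and 13.8, 16.6 and 14.5 CPM with 16aOHE, and all these groups overlapped. In siCYP1B1 cells neither estrogen group overlapped vehicle. The differences there were 0.28 (0.09 to 0.47) for E2 and 0.23 (0.03 to 0.42) for 16aOHE, and E2 passed the threshold. That call was lost with median-of-ratios scaling (0.25) and without siCYP1B1 vehicle 2 or 3 (0.27 each), siCYP1B1 E2 1 (0.24) or siCYP1B1 E2 2 (0.30). In scrambled cells the differences were 0.09 (-0.10 to 0.28) and 0.05 (-0.14 to 0.24), and the siRNA-by-estrogen differences 0.19 (-0.08 to 0.46) and 0.18 (-0.10 to 0.45).

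**Figure D2:**
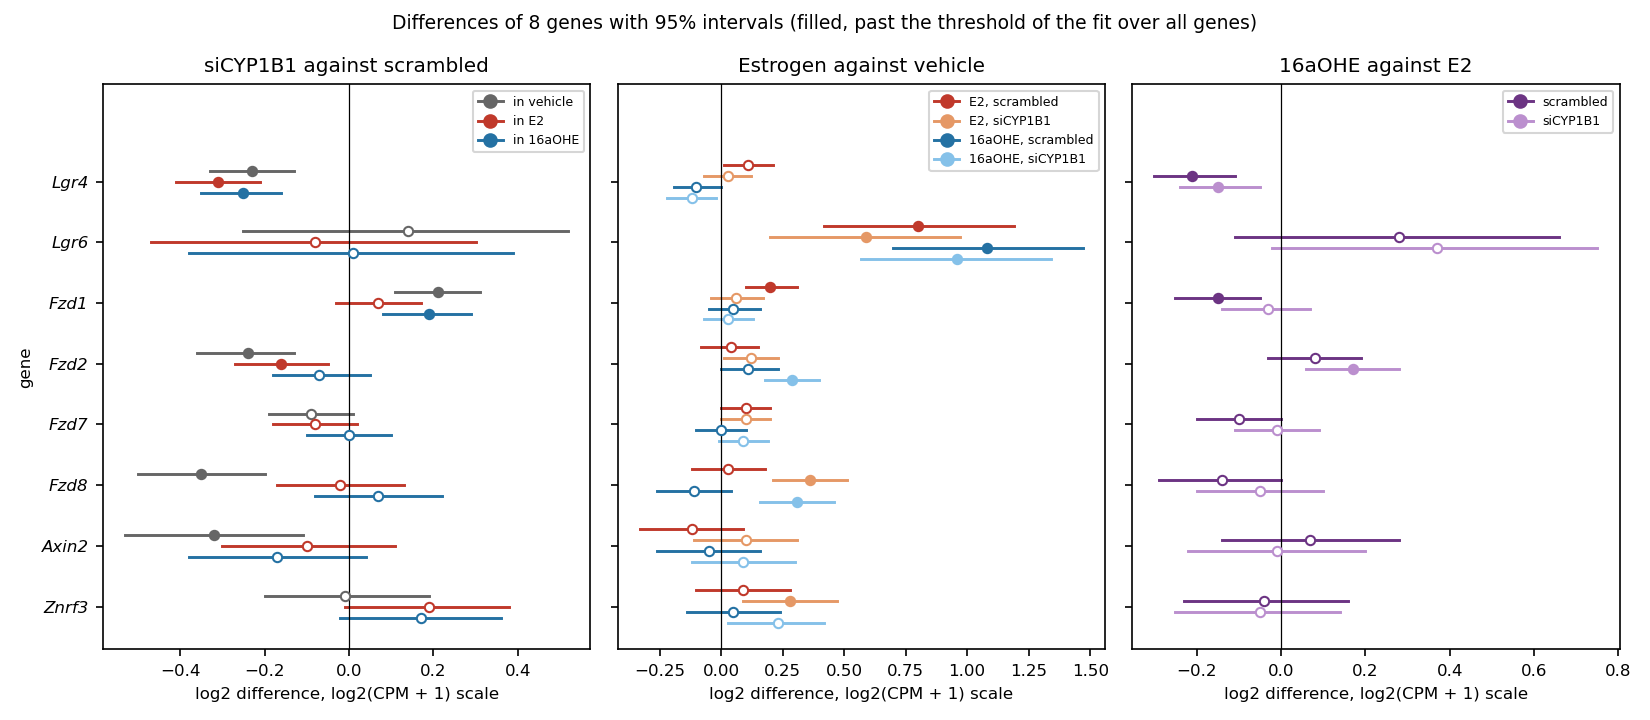
Log2 differences (horizontal axes, log2(CPM + 1) scale) of 8 genes (vertical axis) with 95% intervals for siCYP1B1 against scrambled, each estrogen against vehicle and 16aOHE against E2. Filled points passed the threshold of the fit over all genes. The estrogen differences of Lgr6, 0.59 to 1.08, are the largest, and those of Lgr4 lie below 0 in all 3 siRNA comparisons.

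Counted over the 8 genes, siCYP1B1 in vehicle brought 5 past the threshold of the fit over all genes (limma, adjusted p under 0.05), Fzd1 higher and Lgr4, Fzd2, Fzd8 and Axin2 lower, where 20.6% of all tested genes passed (11.5% higher and 9.12% lower). In E2, 2 passed (Lgr4 and Fzd2 lower) where 21.2% of all genes did (11.4% higher and 9.80% lower). In 16aOHE 2 passed (Fzd1 higher and Lgr4 lower) where 19.7% of all genes did (10.4% higher and 9.31% lower). The median difference of the 8 genes was -0.16 in vehicle, -0.08 in E2 and 0.00 in 16aOHE, beside 0.028, 0.028 and 0.014 over all tested genes. Since the list was made with these comparisons known, nothing is read from the counts.

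E2 brought Lgr6 and Fzd1 past the threshold in scrambled cells, where 30.0% of all genes passed (18.6% higher and 11.4% lower), and Lgr6, Fzd8 and Znrf3 in siCYP1B1 cells, where 27.5% did (16.7% higher and 10.8% lower). 16aOHE brought Lgr6 past it in scrambled cells, where 3.84% of all genes passed (1.76% higher and 2.08% lower), and Lgr6, Fzd2 and Fzd8 in siCYP1B1 cells, where 5.40% did (2.53% higher and 2.86% lower). All of these were higher with the estrogen, and from a list made with these comparisons known nothing is read from their number. The E2 and 16aOHE comparisons share their vehicle libraries, and in siCYP1B1 cells they also share the vehicle group in which Fzd2 and Fzd8 were lowest.

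The 2 estrogens, which differ in the ketone and the added hydroxyl group of 16aOHE, were compared at the same dose and time, as 1 pair in each siRNA. Lgr6 was higher with 16aOHE than with E2 in every library of the same siRNA, but by 0.28 (-0.11 to 0.66) in scrambled and 0.37 (-0.02 to 0.75) in siCYP1B1 cells, intervals that include 0 and allow a difference of 0.75. Lgr4 and Fzd1 passed the threshold as lower in scrambled cells, where 18.4% of all genes passed (6.78% higher and 11.6% lower). In siCYP1B1 cells Lgr4 passed as lower and Fzd2 as higher, where 18.3% did (6.59% higher and 11.8% lower). For Axin2 the differences were 0.07 (-0.14 to 0.28) and -0.01 (-0.22 to 0.20), and for Znrf3 -0.04 (-0.23 to 0.16) and -0.05 (-0.25 to 0.14). The intervals of these feedback genes leave room for differences from -0.25 to 0.28.

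None of the 8 genes passed for an interaction of siRNA and estrogen, nor did any of the 11835 genes with limma (0%). At an unadjusted p under 0.05 by limma, 470 genes stood for E2 (3.97%) and 596 for 16aOHE (5.04%). These shares lie near or below what that threshold lets through on average with no interaction, so nothing is read from them.

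Summed marker levels moved with the same factors for some cell types and little for others. The summed level of 8 fibroblast and pericyte markers, 6 of them at 1 CPM or more, ranged from 6562 to 6922 CPM with scrambled siRNA and vehicle, 4272 to 4785 CPM with E2 and 5800 to 6189 CPM with 16aOHE. With siCYP1B1 the ranges were 5233 to 5531, 3455 to 3576 and 4602 to 4799 CPM. The 8 measured mesothelial and epithelial markers (6 at 1 CPM or more) ranged from 3668 to 3751 CPM with scrambled siRNA and vehicle and from 2375 to 2448 CPM with siCYP1B1 and E2. The 7 measured endothelial markers, of 12 listed, ranged from 257 to 296 CPM and from 133 to 139 CPM in these groups. Smooth muscle sums averaged 134, 110 and 123 CPM with vehicle, E2 and 16aOHE in scrambled cells. In siCYP1B1 cells they averaged 114, 102 and 102 CPM. Leukocyte sums differed little, with group means from 33.1 to 35.9 CPM. With 16aOHE the fibroblast, mesothelial and endothelial sums lay between those of vehicle and E2, in scrambled and in siCYP1B1 cells. The part of cell composition in the Wnt genes' differences was not tested, and fewer cells of a type and less RNA per cell cannot be told apart in such libraries.

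The rest of the Wnt pathway was covered by a list of 100 other genes, of which 83 were in the table and 59 passed the filter. With siCYP1B1 in vehicle 6 of the 59 rose (10.2%, beside 11.5% of all genes) and 11 fell (18.6%, beside 9.12%). In E2 1 rose (1.69%, beside 11.4%) and 13 fell (22.0%, beside 9.80%), and in 16aOHE 4 rose (6.78%, beside 10.4%) and 8 fell (13.6%, beside 9.31%). The share that fell was thus above that of all genes in each arm, while the median difference of the list was -0.01, -0.01 and 0.01. With E2, 9 rose and 9 fell in scrambled cells (15.3% each, beside 18.6% and 11.4% of all genes), and in siCYP1B1 cells 5 rose (8.47%, beside 16.7%) and 12 fell (20.3%, beside 10.8%). With 16aOHE 2 fell in scrambled cells (3.39%, beside 2.08%), and in siCYP1B1 cells 3 rose (5.08%, beside 2.53%) and 1 fell (1.69%, beside 2.86%). The number called in either direction moved by over 1.5 times in some cases. For siCYP1B1 in vehicle it went from 17 to 10 without scrambled vehicle 2, scrambled vehicle 3 or siCYP1B1 vehicle 3, and to 11 without siCYP1B1 vehicle 1. In E2 it went from 14 to 9 without scrambled E2 2 or siCYP1B1 E2 2. In 16aOHE it went from 12 to 6 without scrambled 16aOHE 3 or siCYP1B1 16aOHE 3, and to 5 with only the groups compared. For 16aOHE in scrambled cells 1 of the 2 calls was left without scrambled vehicle 1 or 2 or any of the 3 scrambled 16aOHE libraries, and in siCYP1B1 cells the 4 calls went to 1 without siCYP1B1 vehicle 3 and to 2 without siCYP1B1 16aOHE 2. No test of the list was made, and nothing is called particular to it from these shares. Adjusted p-values of its genes below are from limma, over all tested genes.

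The ligand of the Lgr receptors that passed the filter, Rspo1, did so only through its scrambled groups, whose means were 2.37, 2.09 and 1.82 CPM against 0.929, 0.970 and 0.638 CPM with siCYP1B1. A gene that passes in this way had to differ, so its values are given without a test. It stood at 2.88, 2.12 and 2.10 CPM with scrambled siRNA and vehicle and at 0.753, 1.07 and 0.961 CPM with siCYP1B1 (log2 -0.80). The differences were -0.64 in E2 and -0.79 in 16aOHE, and the groups did not overlap in any arm. Rspo1 is among the genes counted as lower with siCYP1B1 above. Rspo3 averaged 0.121 CPM, and Rspo2 and Rspo4 are not analysed here.

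The inhibitor with the largest differences was Sfrp4, a secreted Frizzled-related protein that binds Wnt ligands. It stood at 66.8, 62.9 and 53.5 CPM with scrambled siRNA and vehicle, 28.4, 29.3 and 31.2 CPM with E2 and 41.4, 46.8 and 45.2 CPM with 16aOHE. It fell with E2 in scrambled cells (log2 -1.01, adjusted p = 3.04e-08 by limma) and with siCYP1B1 in vehicle (log2 -0.72, adjusted p = 5.37e-06). Sfrp4 also fell with E2 in siCYP1B1 cells (-1.15) and with siCYP1B1 in E2 (-0.85) and 16aOHE (-0.66). With 16aOHE it fell by -0.44 in scrambled and -0.39 in siCYP1B1 cells, the latter call lost without siCYP1B1 vehicle 3. Its level with 16aOHE lay between those of vehicle and E2 in both siRNAs, 0.57 and 0.76 above E2 on the log2 scale. By group means, Lgr6 was farthest from vehicle with 16aOHE and Sfrp4 with E2. For Lgr6 the 16aOHE against E2 differences, 0.28 (-0.11 to 0.66) and 0.37 (-0.02 to 0.75), were not called. Different orders of the 2 genes over the estrogens were thus not shown. Kremen1, grouped here with the inhibitors, rose with E2 by 0.39 and 0.32. Sostdc1 fell with E2 in scrambled cells (-0.55), and Apcdd1 rose with siCYP1B1 in vehicle (0.26) and 16aOHE (0.31) and fell with E2 in siCYP1B1 cells (-0.25), in calls each lost without single libraries.

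Among ligands, Wnt10a fell with E2 in scrambled and siCYP1B1 cells (log2 -0.86 and -0.85), from 4.55, 4.89 and 4.98 CPM to 2.81, 2.36 and 1.54 CPM in scrambled cells. Wnt7b rose with E2 in scrambled cells by 0.65, and Wnt5a fell with E2 in both siRNAs (-0.17 and -0.21). Wnt11 (-0.47, -0.51 and -0.54), Wnt9a (-0.25 in vehicle and -0.29 in E2), Wnt10a (-0.46 and -0.45) and Wnt4 (-0.16 in 16aOHE) fell with siCYP1B1, in calls that were each lost without single libraries. The same holds for the call of Wnt5a in scrambled cells, for the fall of Wnt4 with E2 in siCYP1B1 cells (-0.18), and for 16aOHE calls of Wnt10a (-0.57, scrambled) and Wnt7b (0.51, siCYP1B1).

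Of the other receptors, Fzd4 fell with siCYP1B1 in each arm (log2 -0.31, -0.46 and -0.35; adjusted p = 0.000405, 4.12e-06 and 0.000154 by limma). Fzd4 and Fzd2 were thus lower with siCYP1B1 in vehicle while Fzd1 was higher. The co-receptor Lrp5 rose with E2 by 0.18 and 0.19, and Lrp6 fell with siCYP1B1 in vehicle (-0.16) and E2 (-0.15) and rose with 16aOHE in siCYP1B1 cells (0.21), calls lost without single libraries. Ror1, a receptor for Wnt5a, fell with E2 (-0.44 and -0.30) and with siCYP1B1 in vehicle (-0.28, lost without scrambled vehicle 2 or siCYP1B1 vehicle 2). Ptk7 fell with siCYP1B1 in E2 (-0.24) and with E2 in siCYP1B1 cells (-0.26), as did Fzd4 (-0.33). In scrambled cells the E2 differences were called as well (Ptk7 -0.12 and Fzd4 -0.18), in calls lost without single libraries.

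Of 15 cytoplasmic transducers, siCYP1B1 in vehicle raised Dvl2 (0.18), Gsk3a (0.12), Csnk1d (0.11) and Ctnnb1 (0.10) and lowered Gsk3b (-0.24, adjusted p = 0.000179 by limma). All but Gsk3b were lost under at least 1 alternative. Gsk3b was also lower with siCYP1B1 in E2 (-0.16) and 16aOHE (-0.12), and Csnk1d and Ctnnb1 were higher in 16aOHE (0.11 each). These 16aOHE calls were lost under some alternatives. Ctnnb1, the gene of beta-catenin, averaged 819 CPM and rose with E2 by 0.12 and 0.10, calls that median-of-ratios scaling ended. E2 also raised Dvl2 (0.21) and Axin1 (0.13) in scrambled cells, Dvl1 (0.25) in siCYP1B1 cells and Tnks2 (0.15) in both, of which that of Axin1 was lost under some alternatives. The TCF genes Tcf7, Tcf7l1 and Tcf7l2 averaged 3.09, 7.04 and 9.76 CPM and passed in no comparison, and Lef1, at 0.0488 CPM, was below the filter. The co-repressor genes Tle1 (0.19 with siCYP1B1 in vehicle, -0.17 with E2 in siCYP1B1 cells) and Tle4 (-0.18 with E2 in siCYP1B1 cells) passed, in calls lost under some alternatives. Of the polarity genes, Daam1 fell with siCYP1B1 in vehicle (-0.21) and 16aOHE (-0.15), Celsr1 fell with it in E2 (-0.26), and Celsr1 rose with 16aOHE in siCYP1B1 cells (0.37). The 16aOHE call of Daam1 and the E2 call of Celsr1 were lost under some alternatives.

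Of the other target genes, Wisp1, a matricellular protein gene, fell with siCYP1B1 (log2 -0.44, -0.60 and -0.45) and with E2 (log2 -0.22 and -0.38). Myc fell with E2 in scrambled cells (log2 -0.38, adjusted p = 3.94e-05 by limma) and in siCYP1B1 cells (log2 -0.25), and was higher with siCYP1B1 in E2 (0.25). Ccnd1 rose with siCYP1B1 in 16aOHE (0.11), a call lost under some alternatives. For Axin2 no E2 difference passed the threshold, and whether it differed from these targets was not tested.

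**Figure D3:**
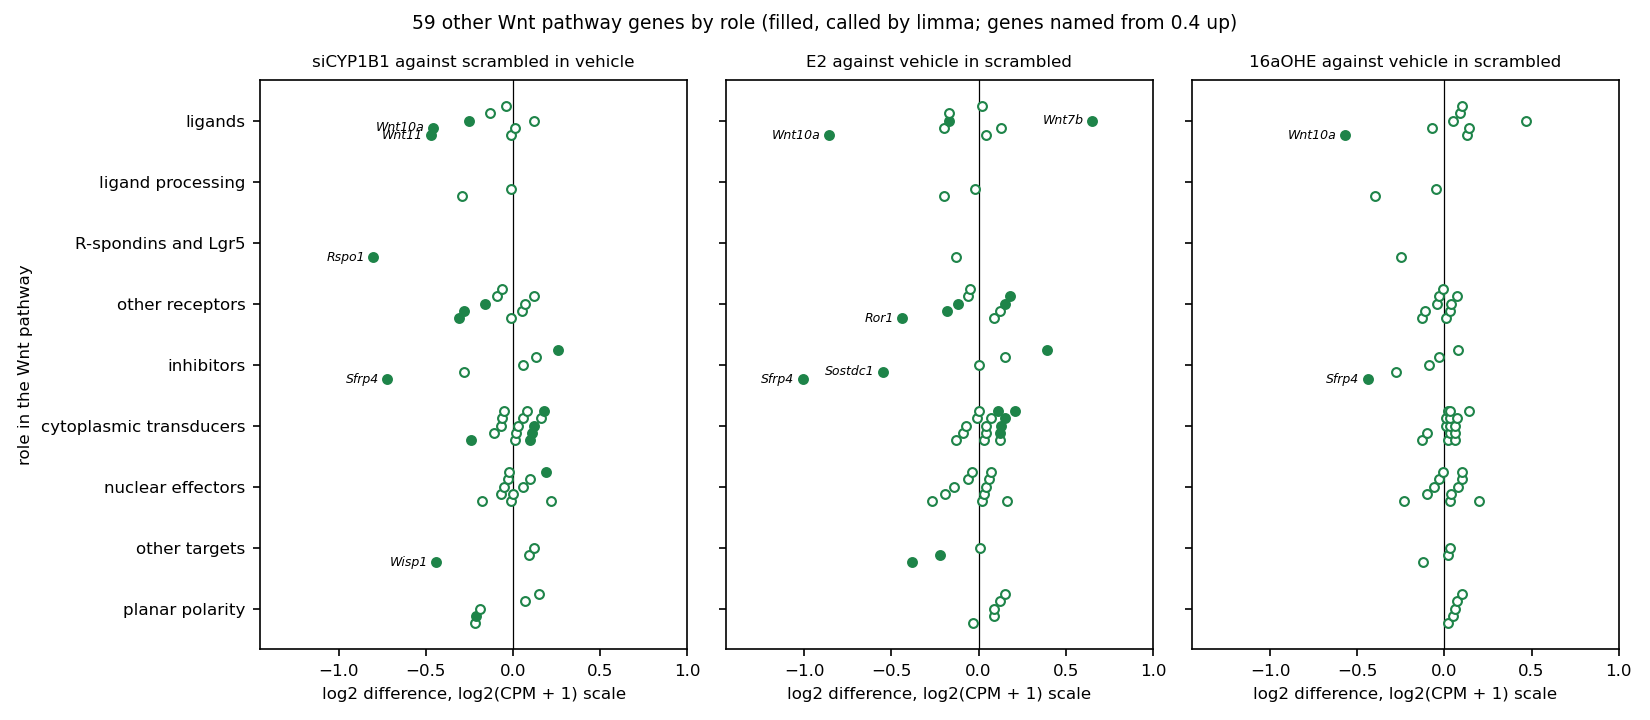
Log2 differences (horizontal axes, log2(CPM + 1) scale) of 59 other Wnt pathway genes by role (vertical axis; spread within a role is for legibility) for siCYP1B1 in vehicle and each estrogen in scrambled cells. Filled points were called by limma, 17, 18 and 2 in the panels from left to right, and Sfrp4 is lower in all 3.

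The genes whose levels were most like that of Lgr6 over the 18 libraries, by Pearson r of log2(CPM + 1), were Rarb (0.912), Mmp3 (0.879), Adam22 (0.868), Chd1 (0.858) and Tmem215 (0.853). Rarb, the gene of retinoic acid receptor beta, averaged 28.1 CPM with vehicle, 35.1 CPM with E2 and 39.4 CPM with 16aOHE in scrambled cells. With siCYP1B1 its means were 27.8, 34.5 and 40.2 CPM, the same order as for Lgr6. Mmp3, a matrix metalloproteinase gene, averaged 4.81, 8.30 and 8.89 CPM in scrambled and 5.79, 7.90 and 9.97 CPM in siCYP1B1 cells.

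Most like Axin2 were Lysmd3 (0.833), Fubp1 (0.801), Sh3rf1 (0.770), Ephb2 (0.763) and Nfil3 (0.754). Lysmd3 averaged 27.0, 25 and 27.1 CPM with vehicle, E2 and 16aOHE in scrambled cells and 21.3, 23.5 and 25.2 CPM in siCYP1B1 cells, lowest where Axin2 was lowest. These correlations were the highest among the tested genes once predicted genes, pseudogenes and small RNA genes were left out. They are over libraries that share the groups of the design.

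**Figure D4:**
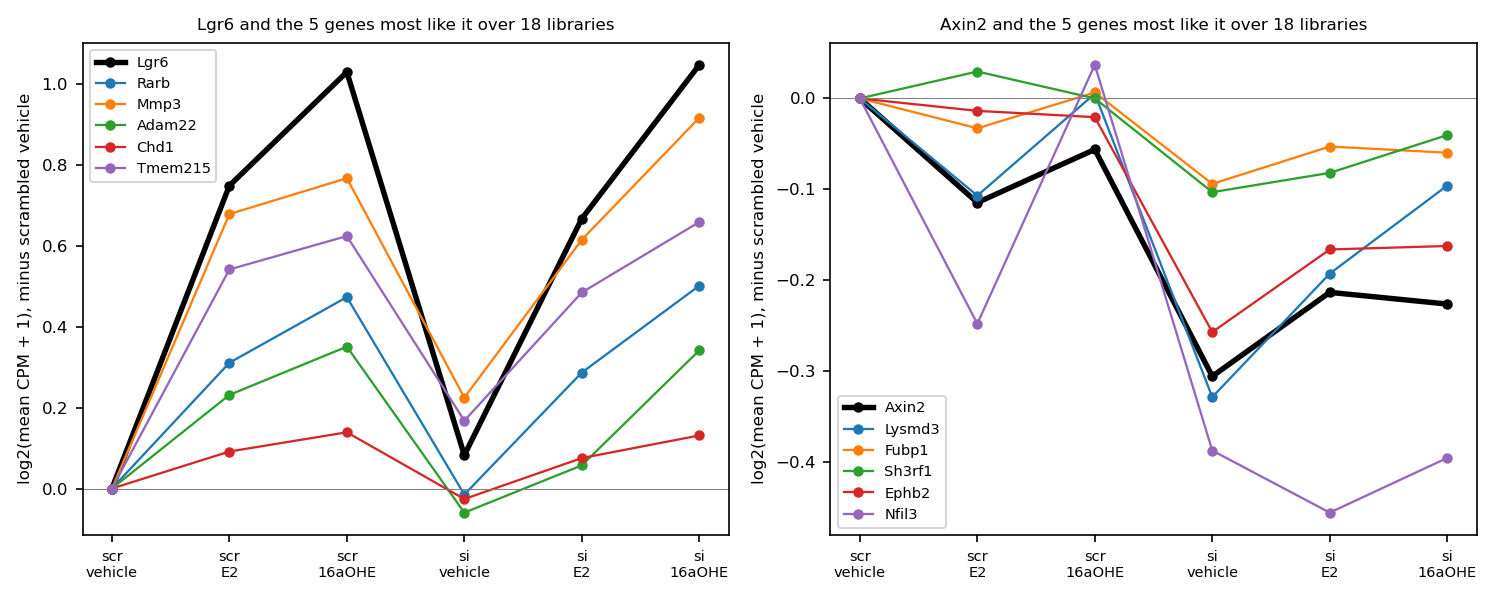
Group means as log2(mean CPM + 1) minus the scrambled vehicle group (vertical axes) in the 6 groups (horizontal axes; scr, scrambled siRNA; si, siCYP1B1) for Lgr6 and Axin2 (thick black lines) and the 5 genes most like each. In means, Lgr6 and its 5 genes, picked for likeness to it, are higher with both estrogens than with vehicle in both siRNAs. Not every estrogen difference of the 5 genes was called. Axin2 is lowest with siCYP1B1 and vehicle.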

How the data were processed

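RNA was sequenced in 18 libraries, 3 in each of 6 groups given by the siRNA and estrogen labels. Reads were handled with TopHat2 and Partek on mm10, per the submitters' processing notes. The sources used here name no version, annotation or filter for these steps. The authors deposited CPM values, per gene and library, with an offset of 0.0001 added (columns summed to 1000001.5 to 1000001.6).

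Low values fell on steps of 1 read, which gave 14.0 to 38.4 reads per CPM. Of those low values 94.2% to 95.7% were whole within 0.1 reads, so count models were not run. With limma 3.58.1 in R 4.3.3 (lmFit, contrasts.fit, eBayes with trend), log2(CPM + 1) was fitted for 11835 genes (mean over the libraries 1 CPM or higher) with 1 coefficient per group over all libraries, and 11 contrasts were adjusted by Benjamini-Hochberg (threshold 0.05). The script was tested on simulated data. Alternatives were a pseudocount of 0.1, no filter, a mean of at least 5 CPM, median-of-ratios scaling, only the groups compared, and leaving out each library.

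The genes described and the Wnt list were chosen with earlier results of these data known. The list's genes were named by rule: up to 3 called genes per role with the largest difference in each siRNA or estrogen contrast, and Lgr5, Lrp5, Lrp6, Ctnnb1, the TCF/LEF genes and the R-spondins whatever their values. Not every call of a named gene is given. The genes most like Lgr6 and Axin2 are the 5 with the highest Pearson r, with predicted genes, pseudogenes and small RNA genes left out. Exon lengths and 3′ UTRs came from GENCODE M21 and promoters from RefSeq GRCm38.p6. Positions are those of the table with the stop reduced by 1, which equalled the RefSeq end for 56.8% of 14884 symbols, against 4.13% as listed. No protein sequences were used here.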

Additional observations from a re-analysis of the deposited data

How the results depend on the processing

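No paired analysis was possible because no label numbers the replicates (numbers here only name a library). Of 253 counts of called genes over all comparisons and alternatives, 238 stayed within 1.5 times the count reported. With only the groups compared in the fit, the count for siCYP1B1 in 16aOHE went from 2331 to 1538, that for 16aOHE in siCYP1B1 cells from 639 to 365, and the interaction of 16aOHE with the siRNA from 0 to 12. Leaving out single libraries gave 1538 to 2399 genes for siCYP1B1 in 16aOHE (lowest without scrambled 16aOHE 1). It gave 248 to 493 for 16aOHE in scrambled cells, from 454 (lowest without scrambled 16aOHE 1, and 282 to 285 without scrambled vehicle 1, scrambled vehicle 2 or scrambled 16aOHE 3). For 16aOHE in siCYP1B1 cells it gave 306 to 755 (306 without siCYP1B1 16aOHE 2, 316 without siCYP1B1 vehicle 3 and 384 without siCYP1B1 vehicle 2). For 16aOHE against E2 in siCYP1B1 cells it gave 1446 to 2229, from 2171 (lowest without siCYP1B1 16aOHE 2), and for the interaction of 16aOHE 0 to 15 (15 without scrambled E2 2, 2 without siCYP1B1 E2 3 and 1 without siCYP1B1 vehicle 3). The cause of these shifts was not tested beyond the smaller number of libraries. Median-of-ratios scaling moved the share of called genes that were higher from 55.7% to 41.4% for siCYP1B1 in vehicle, 53.7% to 41.1% in E2, 62.0% to 46.9% for E2 in scrambled and 60.6% to 45.8% in siCYP1B1 cells, and 36.8% to 54.5% and 35.9% to 59.3% for 16aOHE against E2. Of 2013 differences of the 8 genes under alternatives none called reversed, 45 lost and 2 gained the threshold. Differences of genes near 1 CPM, Lgr6 and Rspo1 among them, rest on the fewest reads.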
